A study of Saccharomyces cerevisiae with 4 samples.

Results

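The proteins of the large subunit of the cytosolic ribosome were followed gene by gene in a ribosome profiling study of budding yeast. A row of the count table was taken as a member when its systematic name carries, in the RefSeq annotation, the symbol RPL followed by a number, with or without A or B, or one of RPP0, RPP1A, RPP1B, RPP2A and RPP2B. This rule found 81 genes among the 6600 coding sequences of the table, which encode 46 proteins: 35 by a pair of A and B paralogs and 11 by a single gene. All 81 passed the filter on low counts. In ribosome profiling, mRNA is digested down to the stretches covered by ribosomes and these are sequenced, so a count here is a ribosome footprint on a coding sequence. The tested strain, called mutant, had its frameshifted OAZ1 gene, which encodes ornithine decarboxylase antizyme, exchanged for an in-frame version. The other strain, WT, kept the natural gene. Both have the 74D-694 background and were collected from synthetic medium in mid-exponential phase after cycloheximide at 50 µg/mL, an inhibitor of elongation that holds ribosomes on the mRNA. Each strain gave 2 libraries. The labels do not say whether replicates were separate cultures or clones, so every p-value measures the spread between these libraries, which may be technical. With footprints alone, more ribosomes per mRNA and more mRNA could not be told apart.

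The large subunit carries the peptidyl transferase centre, the tunnel through which the new chain leaves, and the stalk that recruits the elongation factors. Its proteins are made in large amounts in growing yeast, and their genes are known to be switched together with growth rate, largely through Rap1, Fhl1, Ifh1 and Sfp1. Most of these genes descend from a duplication of the whole genome and kept both copies, often with an intron. Here 53 of the 81 genes had an intron in the coding region, RPL7A and RPL7B having 2 each, and the coding sequences ran from 25 to 387 codons.

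The libraries differed in depth and in profile. Total counts were 7571371 and 2826895 in mutant replicates 1 and 2, and 29671498 and 10202557 in WT replicates 1 and 2. Members had between 13 and 220745 counts per library, and 64 of them had at least 1000 counts in every library. Over the 4603 genes whose counts averaged 100 or more, log2 values differed with an SD of 0.30 between the mutant libraries and 0.51 between the WT libraries. It was 0.22 between mutant replicate 1 and WT replicate 2, so WT replicate 1 stood apart from its own group, and results that rest on it are given without it as well. Over the 81 members the order was reversed, with an SD of 0.48 between the mutant libraries and 0.41 between the WT libraries. For members it was 0.18 between mutant replicate 1 and WT replicate 2 and 0.52 between mutant replicate 2 and WT replicate 2. OAZ1 itself had 160 and 49 counts in mutant and 379 and 110 counts in WT. Its log2 fold change was 0.73 (SE 0.22, edgeR adjusted p = 0.755), and since the gene was exchanged and not removed, this does not check the labels.

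Large subunit genes took a larger share of the footprints in mutant than in WT, with no overlap of the libraries. The share was 9.75% and 10.8% in mutant replicates 1 and 2, against 8.60% and 8.96% in WT replicates 1 and 2. The 95% Wilson intervals, which cover counting error only, were 9.73% to 9.77% and 10.8% to 10.9% in mutant and 8.59% to 8.61% and 8.94% to 8.98% in WT. The means were 10.3% ± 0.766 in mutant and 8.78% ± 0.256 in WT (SD, n = 2 each), a difference of 1.51 percentage points. The exact permutation test, two-sided, gave p = 0.333, the smallest value that 2 libraries against 2 can give. With no overlap, leaving out any single library could not change this direction, so it adds no check. Since 16 members lie among the 100 genes with the highest mean share, the share was also taken without those 100 genes. It then stood at 8.55% and 9.23% in mutant and 7.11% and 8.07% in WT.

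The small subunit genes, 56 with symbols RPS and a number, lay higher as well, 52 of 56 above 0 in log2 fold change with a median of 0.22. Both mutant libraries were above both WT libraries for 34 of the 56 and below them for 0. Among the large subunit genes the former held for 49 of 81, and among all genes for 19.1%. The share of the small subunit genes was 6.39% and 7.08% in mutant and 5.56% and 5.79% in WT. The ratio of large to small subunit counts was 1.52 and 1.53 in mutant and 1.545 and 1.547 in WT. That is a mean difference of -0.019, with the ratio lower in both mutant libraries (exact permutation p = 0.333, two-sided, again the smallest possible). The SD within a group was 0.00321 for mutant and 0.000855 for WT. With counts divided by coding length, the ratio was 1.56 and 1.52 in mutant and 1.59 and 1.58 in WT.

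No large subunit gene passed the test at an adjusted p of 0.05, and neither did any other gene (0.0% of 5233 genes tested, edgeR's quasi-likelihood test). The smallest adjusted p among the members was 0.755, and DESeq2 also called 0 members, while it called 0.0% of all genes higher and 0.0683% lower. At an unadjusted p under 0.05 edgeR had 12 members higher and 1 lower in mutant, where the share over all genes was 1.72% higher and 3.73% lower, while DESeq2 had 6 higher, against 0.837% of all genes, and 0 lower, against 4.92%. Of the 81 log2 fold changes, 74 lay above 0, with a median of 0.25. Over all genes 48.4% lay above 0, with a median of -0.011. Both mutant libraries exceeded both WT libraries for 49 members, or 60.5%, against 19.1% of all genes. For 3 members, or 3.70%, both mutant libraries lay below both WT libraries, against 17.9% of all genes. The remaining 29 overlapped. The median was 0.21 without WT replicate 1, with 67 of 81 above 0, and 0.22 without mutant replicate 2, also with 67 above 0.

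**Figure D1:**
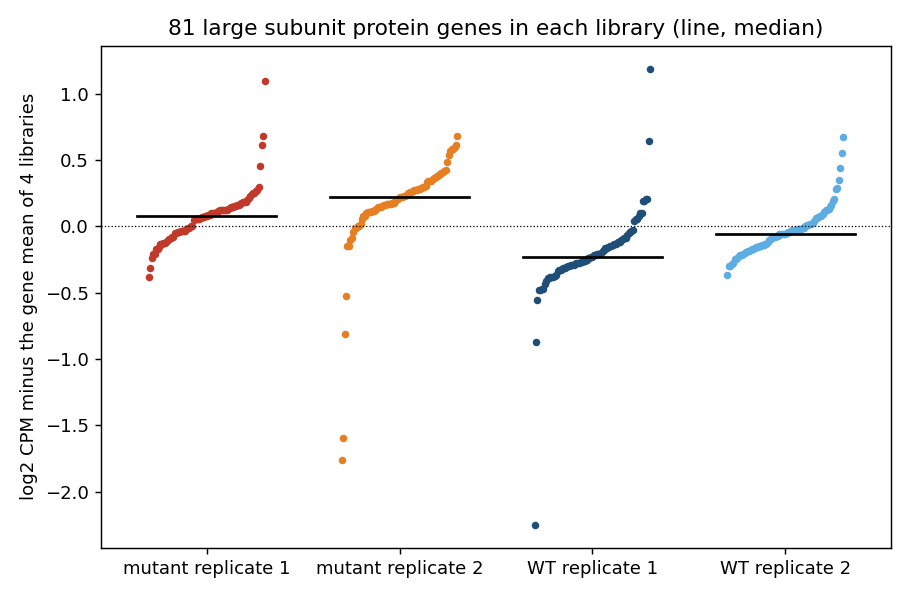
Deviation of each of the 81 genes (points) from its own mean over the 4 libraries, as log2 of TMM-normalized CPM (vertical axis), by library; the line is the median. The medians stand at 0.082 and 0.22 in the mutant libraries and at -0.23 and -0.054 in the WT libraries, and the lowest points of mutant replicate 2 are RPL41A and RPL41B.

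The shift was graded rather than split cleanly between the strains, as the plot of deviations by library shows. The median deviation of the members from their own means was 0.082 and 0.22 in mutant replicates 1 and 2, and -0.23 and -0.054 in WT replicates 1 and 2. Members lay above their own mean in 52 and 70 cases in mutant and in 12 and 27 cases in WT. Mutant replicate 1 and WT replicate 2, the neighbours in this order, differed by a median of 0.13, with 63 of 81 members higher in mutant replicate 1. The mutant libraries differed from each other by a median of 0.15 and the WT libraries by 0.15 as well, so the gap between the strains at its narrowest was no wider than the gap within each.

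Calls depended on which WT library was left out. Without WT replicate 1, edgeR called RPL16A higher and RPL41A and RPL41B lower, where 0.325% of all genes were called higher and 0.42% lower. Without WT replicate 2, it called 22 members higher and 2 lower, where 4.35% of all genes were called higher and 14.9% lower. Each of these fits takes the spread from the mutant pair alone and applies it to the lone WT library. RPL16A, RPL41A and RPL41B were called in both, and the fits share their mutant libraries. Without either mutant library no member and no other gene was called.

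Of the 12 members higher in mutant at an unadjusted p under 0.05 (edgeR), 8 were among the 35 genes outside the groups by place given below. RPL20B (YOR312C, chrXV:900250-901194) had 1411 and 1504 CPM in mutant and 879 and 1068 CPM in WT, where CPM is the TMM-normalized count scaled to a common library total. The groups did not overlap, and the log2 fold change was 0.58 (SE 0.16, edgeR adjusted p = 0.755). RPL11B, a protein of the 5S ribonucleoprotein, had 795 and 915 CPM in mutant and 524 and 624 CPM in WT, a log2 fold change of 0.57 (SE 0.16). For RPL37B the values were 976 and 1087 CPM in mutant and 654 and 778 CPM in WT, a log2 fold change of 0.53 (SE 0.16). Each of these genes stood higher in both mutant libraries, and their values without WT replicate 1 were 0.45, 0.45 and 0.40.

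RPL16A showed the largest difference among the members with at least 1000 counts in every library, at a log2 fold change of 0.69 (SE 0.25). It had 733 and 1208 CPM in mutant and 617 and 584 CPM in WT, so the gap between the mutant libraries was wider than that between mutant replicate 1 and WT. Its paralog RPL16B followed the same pattern, with 2325 and 3803 CPM in mutant and 2071 and 2096 CPM in WT. RPL16A stood at 0.29 and RPL16B at 0.16 when mutant replicate 2 was left out.

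RPL25, which sits at the tunnel exit where the signal recognition particle docks, had 2245 and 2312 CPM in mutant and 1606 and 1820 CPM in WT, a log2 fold change of 0.41 (SE 0.15). RPL33A and RPL33B encode the same small protein and stood at 0.41 and 0.48. RPL18B had 238 and 280 CPM in mutant and 183 and 194 CPM in WT. RPL6B had 729 and 906 CPM in mutant and 596 and 617 CPM in WT, a log2 fold change of 0.43 that was 0.27 without mutant replicate 2. RPL42A and RPL23A had log2 fold changes of 0.43 and 0.51, with a gap between the WT libraries in each, 287 and 360 CPM for RPL42A and 278 and 377 CPM for RPL23A. Without WT replicate 1 they stood at 0.27 and 0.30. The remaining gene of the 12 with the smallest unadjusted p, RPL26B, was the lower one.

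**Figure D2:**
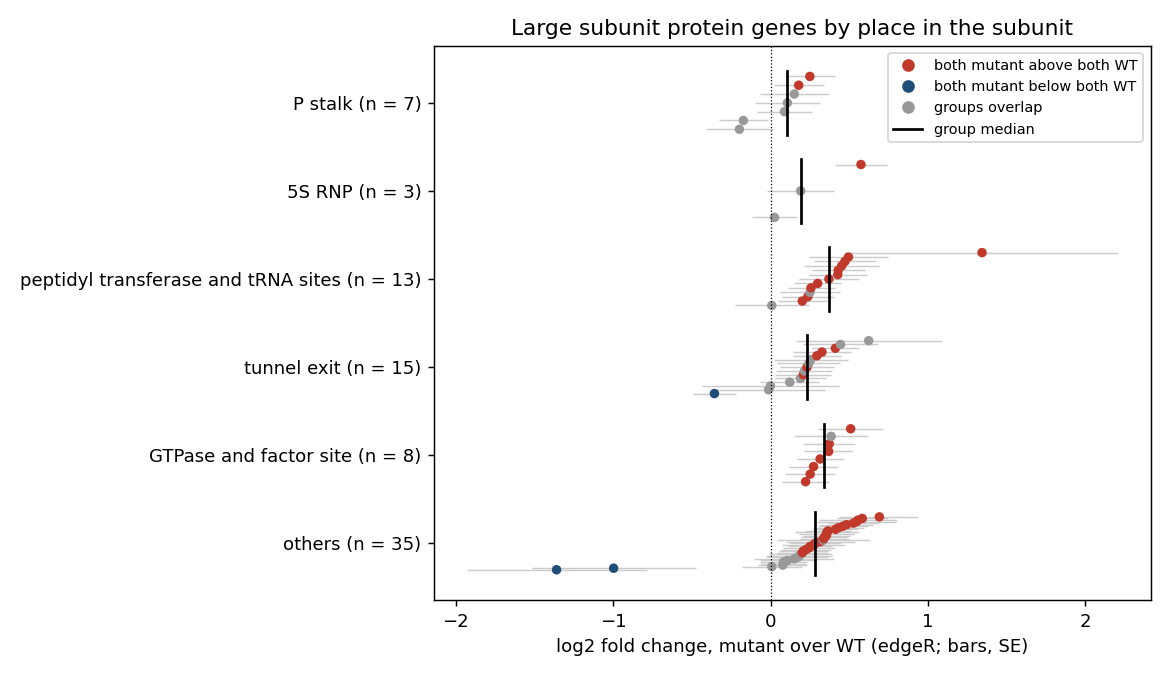
Log2 fold change of mutant over WT (horizontal axis, edgeR; bars are SE) of each large subunit gene, grouped by listed place in the subunit; RPL40A and RPL40B are in the factor site group, RPL8A and RPL8B are counted in the peptidyl transferase group although Rpl8 lies away from that centre, black lines are medians and colours show whether the groups overlap. All points of the peptidyl transferase and factor site groups lie above 0, the P stalk straddles 0 with a median of 0.11, and RPL26B, RPL41A and RPL41B are the 3 genes with both mutant libraries below both WT libraries.

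The P stalk genes lay on both sides of 0. The stalk consists of the scaffold P0 and pairs of P1 and P2 proteins whose tails bind the elongation factors, on a base that includes Rpl12. Of its 7 genes 5 lay above 0, with a median of 0.11, and the groups overlapped for 5. The median was 0.14 without WT replicate 1 and -0.13 without mutant replicate 2. RPP0 had 4927 and 5850 CPM in mutant and 5501 and 4634 CPM in WT, a log2 fold change of 0.089 (SE 0.17, 95% interval -0.33 to 0.51). RPP1A had 1427 and 1577 CPM in mutant and 1813 and 1572 CPM in WT, and RPP2A had 1195 and 1741 CPM in mutant and 1800 and 1566 CPM in WT. Their log2 fold changes were -0.17 (SE 0.15) and -0.20 (SE 0.21). RPP1B, at 1318 and 1793 CPM in mutant and 1289 and 1599 CPM in WT, and RPP2B, at 1540 and 2320 CPM in mutant and 1733 and 1742 CPM in WT, stood at 0.11 and 0.15. Without mutant replicate 2 RPP0, RPP1B and RPP2B lay below 0, at -0.040, -0.13 and -0.17, and without mutant replicate 1 RPP2A lay at 0.055. The groups overlapped for all 5 P protein genes, and the 2 stalk genes with no overlap were RPL12A (0.18) and RPL12B (0.25), both higher in mutant. Both mutant libraries were above both WT libraries for 60.5% of all members and 19.1% of all genes. Summed over the 7 genes, the stalk had 12184 and 14953 CPM in mutant and 13642 and 12580 CPM in WT.

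Within the 5S ribonucleoprotein, which joins the subunit as a preformed particle of 5S rRNA, Rpl5 and Rpl11, the 3 genes lay between 0.025 and 0.57. RPL5 had 3761 and 3481 CPM in mutant and 3478 and 3642 CPM in WT, a log2 fold change of 0.025 (SE 0.14, 95% interval -0.33 to 0.38). RPL11A had 226 and 243 CPM in mutant and 168 and 244 CPM in WT, and lay at 0.19 with all libraries and at -0.057 without WT replicate 1. RPL11B, given above, was the only one of the 3 genes with no overlap. Both mutant libraries were above both WT libraries for 60.5% of all members and 19.1% of all genes.

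All 13 genes listed under the peptidyl transferase centre and the tRNA sites lay above 0, with a median of 0.37. The list holds the genes of Rpl1, Rpl2, Rpl3, Rpl4, Rpl8, Rpl10, Rpl28 and Rpl42. Rpl8 lies away from these sites, and its genes RPL8A and RPL8B, at 0.24 and 0.49, count among the 13. For 11 of the 13 both mutant libraries were above both WT libraries, as for 60.5% of all members and 19.1% of all genes. The lowest was RPL1B at 0.0077, which lay at -0.22 without mutant replicate 2 and -0.19 without WT replicate 2. RPL3, a core protein near the catalytic centre and the member with the highest raw counts, had 8164 and 11009 CPM in mutant and 7379 and 7449 CPM in WT (log2 fold change 0.37, SE 0.19). RPL10, whose loop reaches the tRNA in the P site, had 3628 and 4236 CPM in mutant and 3349 and 3489 CPM in WT (0.20, SE 0.15). RPL28, the gene in which cycloheximide resistance mutations arise, had 3649 and 3970 CPM in mutant and 2949 and 3244 CPM in WT (0.30, SE 0.15). Without mutant replicate 2, RPL3 stood at 0.14 and RPL10 at 0.086. The list median was 0.26 without WT replicate 1 and 0.21 without mutant replicate 2. RPL1A set the upper end at 1.34 on only 53 and 13 counts in mutant and 20 and 48 counts in WT. Its value was 0.40 without WT replicate 1, so it rests on that library.

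The GTPase and factor site genes, which include those of Rpl9, Rpl23, Rpl24 and Rpl40, had all 8 members above 0 and a median of 0.34. In 7 of them both mutant libraries were above both WT libraries, as in 60.5% of all members and 19.1% of all genes. RPL40A and RPL40B encode ubiquitin fused to Rpl40, so each protein made also yields a free ubiquitin. RPL40A had 956 and 925 CPM in mutant and 709 and 848 CPM in WT (0.27, SE 0.16), and RPL40B had 765 and 657 CPM in mutant and 500 and 598 CPM in WT (0.37, SE 0.17). Without WT replicate 1 they stood at 0.15 and 0.25. UBI4, the polyubiquitin gene, had 518 and 438 CPM in mutant and 452 and 689 CPM in WT, with overlapping groups (-0.25, SE 0.23). RPS31, the ubiquitin fusion of the small subunit, had a log2 fold change of 0.17.

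At the tunnel exit 12 of 15 genes lay above 0, with a median of 0.23, and the groups overlapped for 9. This part of the subunit binds the nascent chain complex, the signal recognition particle and the translocon. For 5 of the 15 both mutant libraries were above both WT libraries, and for 1 both were below. Among all members 60.5% were above and 3.70% below, and among all genes 19.1% and 17.9%. Without WT replicate 1 the median was 0.12. RPL31A had 2170 and 3457 CPM in mutant and 2172 and 1962 CPM in WT, so the difference came with mutant replicate 2. RPL22A and RPL22B, a pair in which the protein is known to hold back splicing of RPL22B, stood at 0.25 and 0.21. RPL22A had 1050 and 1561 CPM in mutant and 1227 and 960 CPM in WT, and RPL22B had 196 and 252 CPM in mutant and 189 and 196 CPM in WT. Without mutant replicate 2 they stood at -0.058 and 0.026, so the direction of RPL22A rests on that library. RPL39, a short protein of the tunnel wall, had 1679 and 851 CPM in mutant and 999 and 1558 CPM in WT. The replicates of RPL39 therefore lay farther apart than the strains, whose log2 difference was -0.013 (SE 0.36).

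The remaining 35 genes had 33 above 0 and a median of 0.28. In 23 of them both mutant libraries were above both WT libraries, in 2 both were below, and 10 overlapped. Among all members 60.5% were above and 3.70% below, and among all genes 19.1% and 17.9%. RPL30, whose protein binds its own transcript and blocks its splicing, belongs here. It had 1071 and 1158 CPM in mutant and 811 and 921 CPM in WT (log2 fold change 0.36, SE 0.15). RPL29, which yeast can do without, had 718 and 1094 CPM in mutant and 530 and 710 CPM in WT. RPL32 had 2662 and 2274 CPM in mutant and 2117 and 2794 CPM in WT, with both mutant values inside the WT range.

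RPL26B was the clearest member in the opposite direction. It had 1118 and 1163 CPM in mutant and 1492 and 1429 CPM in WT, so that the strains were apart by more than the replicates of either. The log2 fold change was -0.36 (SE 0.14, 95% interval -0.69 to -0.020, edgeR adjusted p = 0.755), and it lay between -0.39 and -0.32 when any single library was left out. RPL26A, its less used paralog, had 317 and 239 CPM in mutant and 241 and 271 CPM in WT, with overlapping groups and a direction that turned without mutant replicate 1 (0.12 with all libraries, -0.092 without it). Rpl26 sits beside the tunnel exit, and 18.8% of the 28-mers of either coding sequence also occur in another coding sequence. The most divergent 60 bases show what separates the copies, with differing bases in capitals (sacCer3, R64; RPL26A at chrXII:819813-819872 and RPL26B at chrVII:556343-556402, both plus strand).
RPL26A: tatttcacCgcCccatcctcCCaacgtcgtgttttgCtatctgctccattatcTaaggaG
RPL26B: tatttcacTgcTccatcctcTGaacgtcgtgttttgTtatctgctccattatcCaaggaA

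RPL41A and RPL41B were the other genes with both mutant libraries below both WT libraries. They encode the same basic peptide of 25 residues, the shortest protein of the ribosome, and their reading frames are shown whole because they are so short. The copies differ at 1 base, C9T counted from the first base of the start codon of RPL41A (capitals; sacCer3, R64; RPL41A at chrIV:130407-130484 and RPL41B at chrIV:221724-221801, both minus strand).
RPL41A: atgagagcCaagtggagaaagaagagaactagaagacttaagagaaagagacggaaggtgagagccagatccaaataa
RPL41B: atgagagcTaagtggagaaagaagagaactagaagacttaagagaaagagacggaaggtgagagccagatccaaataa

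RPL41A had 126 and 34.0 CPM in mutant and 262 and 156 CPM in WT, and RPL41B had 96.0 and 26.3 CPM in mutant and 124 and 127 CPM in WT. Mutant replicate 2 was far below the other libraries for both, on 92 and 71 counts. The log2 fold changes were -1.36 (SE 0.57) and -0.997 (SE 0.52), with adjusted p of 0.755 for each in edgeR. They were -0.74 and -0.38 without mutant replicate 2. Below 0 there were also RPP1A, RPP2A, RPL39 and RPL35A, for which the groups overlapped.

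Some members differed between replicates of one strain as much as between the strains. Mutant replicate 2 minus mutant replicate 1, on the log2 scale, was -1.88 for RPL41A, -1.87 for RPL41B, -1.42 for RPL35A and -0.98 for RPL39. It was 0.89 for RPL15A, 0.72 for RPL16A, 0.71 for RPL16B, 0.71 for RPL8B and 0.67 for RPL31A. RPL15A had 3239 and 6011 CPM in mutant and 3951 and 3382 CPM in WT, so its 0.33 with all libraries was -0.18 without mutant replicate 2. Between the WT libraries the widest gaps, given as WT replicate 1 minus WT replicate 2, were -2.80 for RPL1A, -1.15 for RPL35B and 0.75 for RPL41A.

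**Figure D3:**
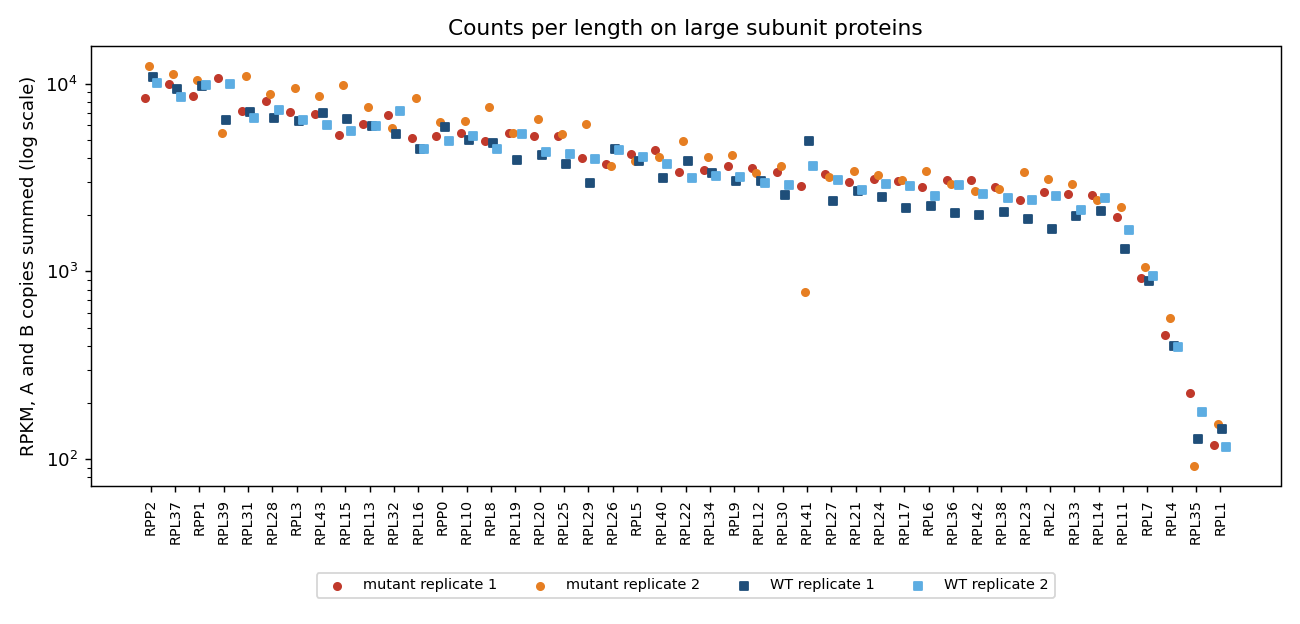
TMM-normalized CPM per kilobase of coding sequence (RPKM, log scale on the vertical axis) of all but 1 of the 46 proteins, A and B copies summed, in each library, ordered by the mean. Most proteins lie within a narrow band, while RPL7, RPL4, RPL35 and RPL1 form a low tail that ends at 134 RPKM.

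Per kilobase of coding sequence the members were far above the typical yeast gene. Their median was 1689 RPKM (normalized CPM per kilobase, mean of 4 libraries), against 28.7 RPKM over 5210 genes with a known length. The highest single genes were RPL39, RPL28, RPL3, RPL31A and RPL15A. On that scale RPL28 had 8466 ± 505 RPKM in mutant and 6880 ± 463 RPKM in WT, and RPL3 had 8236 ± 1728 RPKM in mutant and 6370 ± 42.6 RPKM in WT (SD, n = 2 each). RPL39 had 8110 ± 3753 RPKM in mutant and 8194 ± 2532 RPKM in WT, so its place at the head of the order is within its own spread. The 5 lowest genes were RPL1A, RPL35B, RPL15B, RPL1B and RPL35A, with means of 6.48 RPKM for RPL1A and 131 RPKM for RPL35A at the ends. RPL1A and RPL35B lay below the median of all genes.

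With A and B copies summed, the 11 proteins from a single gene kept within a 3.22-fold range, from 2528 RPKM for RPL38 to 8153 RPKM for RPL39. The 35 proteins from a pair spanned 134 to 10426 RPKM. The head of the order was RPP2 with 10426 RPKM, then RPL37 with 9765 RPKM and RPP1 with 9648 RPKM. P1 and P2 are known to be present in more than 1 copy per ribosome. The spread of RPP2 over the libraries, an SD of 1677 RPKM, covers the gap to both. Summing the copies also left 0 proteins past an adjusted p of 0.05 (0.0% of 5198 rows, edgeR), with a smallest adjusted p of 0.759 among the members. On this scale 41 of 46 proteins lay above 0, against 48.2% of all rows, with a median log2 fold change of 0.26. At an unadjusted p under 0.05 there were 6 proteins, all higher in mutant, where 1.65% of all rows were. Among them were RPL33 (0.43), RPL20 (0.46), RPL25 (0.41), RPL11 (0.48) and RPL30 (0.37). RPL26 (-0.27) and RPL41 (-1.23) were the proteins with both mutant libraries below both WT libraries, as were 17.8% of all rows.

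**Figure D4:**
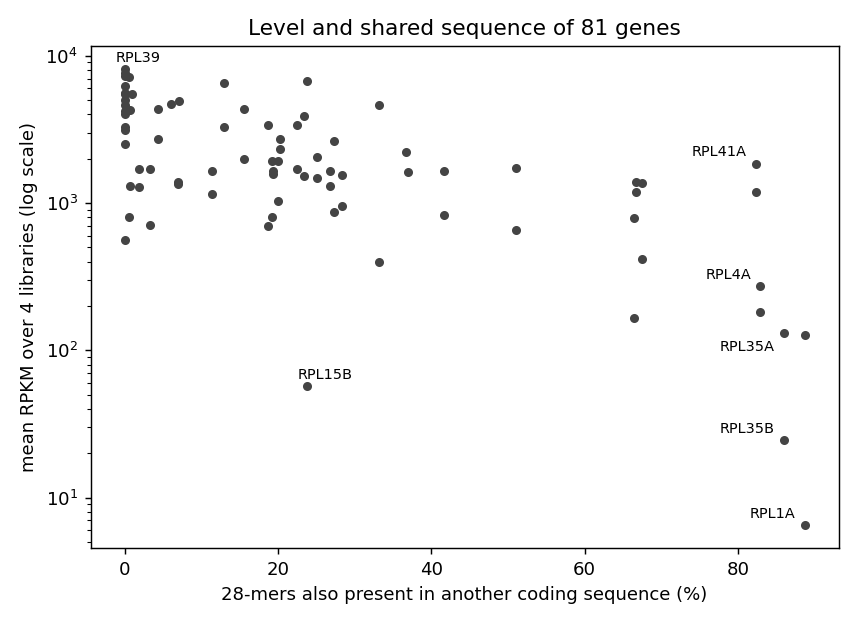
Mean RPKM over 4 libraries (vertical axis, log scale) of the 81 genes against the share of their 28-mers that occur in another coding sequence (horizontal axis, percent). Genes without shared 28-mers lie between 564 and 8152 RPKM, and of the 8 genes with over 80% shared, those of RPL1, RPL4 and RPL35 lie at 272 RPKM or less while RPL41A and RPL41B lie at 1854 and 1195 RPKM.

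The low tail of the order was made of proteins whose copies are nearly identical in sequence. The share of 28-mers found in another coding sequence was 88.7% for RPL1A and RPL1B, 86.0% for RPL35A and RPL35B, 82.9% for RPL4A and RPL4B and 66.4% for RPL7A and RPL7B. Other pairs with much shared sequence lay above this tail. With copies summed, RPL42 with 66.7% shared had 2581 RPKM, RPL11 with 67.5% had 1781 and RPL41 with 82.4% had 3049. Over the 81 genes, Pearson's r between this share and log2 RPKM was -0.68 and Spearman's rho -0.62, as a description across genes, which are not independent because the members of a pair share both sequence and share. With counts divided by the number of 28-mer positions that are not shared, r was -0.30 and rho -0.32. Under that division RPL1B had 1171 CPM per kilobase of unshared positions and RPL4A had 1626, where RPKM were 127 and 272. These are examples and do not stand for the whole tail. RPL1A has the length and share of RPL1B, so the division leaves it as far below RPL1B as before. For some pairs the division rests on few positions, 18 over both copies of RPL41 and 94 over those of RPL35. How the authors treated reads with several matches is not given in the sources used here, so levels of the 16 genes with over 50% shared are uncertain. The log2 fold change had a median of 0.23 over the 43 genes with under 20% shared, 0.34 over the 22 with 20% to 50%, and 0.24 over the 16 above.

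RPL1A and RPL1B show how little there is to tell such copies apart. They differ at 4 of 654 bases, C6T, T15C, T171C and T339C, counted from the first base of the start codon, with the base of RPL1A first. The first 60 coding bases hold 2 of these, in capitals (sacCer3, R64; RPL1A at chrXVI:135790-135849 and RPL1B at chrVII:254641-254700, both plus strand).
RPL1A: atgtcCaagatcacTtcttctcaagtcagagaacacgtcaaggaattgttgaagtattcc
RPL1B: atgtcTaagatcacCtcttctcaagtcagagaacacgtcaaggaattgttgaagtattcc

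**Figure D5:**
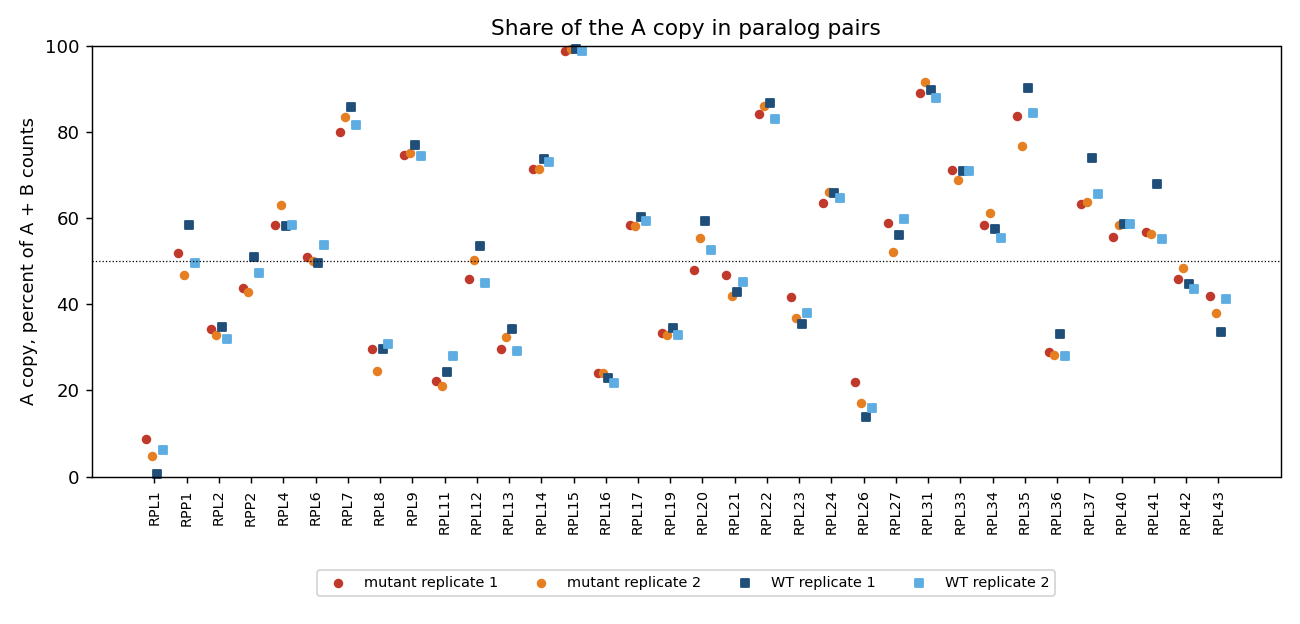
Counts on the A copy as a percent of the counts on both copies (vertical axis) for all but 1 of the 35 paralog pairs, with circles for mutant and squares for WT libraries. In most pairs the 4 libraries lie close together, while RPL37, RPL41 and RPL36 have WT replicate 1 above the others and RPL26 has both mutant libraries above both WT libraries.

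The balance between A and B copies varied far more between pairs than between strains. Where copies share much sequence, the split may also depend on how reads with several matches were assigned, which is not given. The A copy took the larger part in 20 pairs and the B copy in 15, and in 11 pairs 1 copy took over 75% of the counts. Of these 11, 4 were among the 16 pairs with under 20% of 28-mers shared. RPL15A held 98.9% and 99.4% of its pair in mutant and 99.3% and 98.8% in WT. RPL16A held 24.0% and 24.1% in mutant and 23.0% and 21.8% in WT. RPL22A, which shares no 28-mer with RPL22B, held 84.3% and 86.1% in mutant and 86.7% and 83.0% in WT. The difference between strain means was at most 7.17 percentage points, with a median of 2.06, and 31 of the 35 pairs differed by 5 points or less.

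The strains did not overlap in the share of the A copy for 13 of 35 pairs, 37.1%, with the A share higher in mutant for 5 and lower for 8. Among the small subunit pairs this held for 9 of 24, or 37.5%, so the large subunit pairs were close to that background. Among the 16 pairs with under 20% of 28-mers shared it held for 5. For no pair could the exact permutation test go below p = 0.333. In 30 pairs both copies lay above 0 in log2 fold change, in 4 they lay on opposite sides, and in 1, RPL41, both lay below.

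The 6 pairs with the widest difference and no overlap were RPL35, RPL37, RPP2, RPL26, RPL11 and RPL34. RPL37A held 63.2% (95% Wilson interval 62.5% to 63.8%) and 63.8% (62.8% to 64.9%) in mutant, and 73.9% (73.6% to 74.2%) and 65.7% (65.1% to 66.3%) in WT. WT replicate 1 was the library that stood apart, while WT replicate 2 lay closer to the mutant libraries, with an interval that does not touch theirs. RPL26A held 22.1% (21.3% to 22.8%) and 17.1% (15.9% to 18.3%) in mutant, and 13.9% (13.6% to 14.2%) and 15.9% (15.4% to 16.5%) in WT. The intervals of mutant replicate 2 and WT replicate 2 overlap, so that gap is within counting error. RPP2A held 43.7% and 42.9% in mutant and 51.0% and 47.3% in WT, with 7.14% of the 28-mers of RPP2A and 0.98% of those of RPP2B found elsewhere. RPL11A held 22.2% and 20.997% in mutant and 24.3% and 28.1% in WT, while 67.5% of its 28-mers recur. RPL34A held 58.4% and 61.1% in mutant and 57.6% and 55.3% in WT. RPL35A held 83.8% and 76.7% in mutant and 90.3% and 84.5% in WT, on as few as 90 counts for the pair in mutant replicate 2.

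RPL37 is printed as the pair with the widest difference among those with little shared sequence, 12.9% of 28-mers. Its 60 most divergent bases hold 8 differences, in capitals (sacCer3, R64; RPL37A at chrXII:523121-523180, plus strand, and RPL37B at chrIV:1450306-1450365, minus strand).
RPL37A: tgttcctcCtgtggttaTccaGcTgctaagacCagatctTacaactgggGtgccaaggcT
RPL37B: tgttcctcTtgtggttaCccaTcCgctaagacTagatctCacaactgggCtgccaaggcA

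The members also share sequence upstream of their start codons. The letters ACCCNNACA, a loose form of the site of Rap1, were found on either strand within 500 bases upstream of the start codon in 36 of 81 members, or 44.4%. The same holds for 18 of 56 small subunit genes, 32.1%, and for 5.50% of 5896 genes with a full window. The exact letters ACCCATACA, contained in the loose form, were in 14 members, or 17.3%, against 1.14% of all genes. The site of Abf1, taken as TCA and ACG with 6 bases of any kind between them, was in 12 members, or 14.8%, against 22.8% of all genes. The median log2 fold change was 0.27 over the 36 members with the loose Rap1 letters and 0.25 over the 45 without. Both mutant libraries were above both WT libraries in 20 of the 36 and 29 of the 45, and below them in 2 and 1. Over all genes 19.1% were above and 17.9% below. For the exact Rap1 letters the median was 0.19 over the 14 members with them and 0.27 over the 67 without. For the Abf1 letters it was 0.21 over the 12 with and 0.27 over the 69 without. A match is a description of letters and not a bound site.

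The windows below belong to RPL11B and RPL20B, the pair of genes with the smallest unadjusted p, and to RPL26A and RPL26B, whose values went apart. The matched letters are in capitals, 237, 356, 270 and 284 bases upstream of the start codon in that order, and all read on the strand given (sacCer3, R64).
RPL11B, chrVII:649126-649154, minus strand: tacaacgagaACCCATACAttactttttt
RPL20B, chrXV:901532-901560, minus strand: gggactgttcACCCGTACAttttacgttt
RPL26A, chrXII:819032-819060, minus strand: ggattagttaACCCATACAttacatgaaa
RPL26B, chrVII:555518-555546, minus strand: ctcctattaaACCCAAACAcctttaatgc

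Genes that serve the large subunit without being part of it had list medians between 0.12 and 0.18, against -0.011 for all genes. All 8 dedicated chaperones and importers lay above 0, with a median of 0.12, and for 3 of them both mutant libraries were above both WT libraries. Among them SQT1, the chaperone of Rpl10, had 153 and 156 CPM in mutant and 118 and 140 CPM in WT (0.26, SE 0.17). ACL4, the chaperone of Rpl4, stood at 0.24, and RRB1, which serves Rpl3, at 0.14 with overlapping groups. KAP104 was the lowest of the 8, at 0.0038, also with overlapping groups. Of 11 genes of stalk and late assembly 8 lay above 0, with a median of 0.18 and no overlap for 5, all higher. YVH1, the phosphatase that releases Mrt4 so that P0 can join, had 67.0 and 79.9 CPM in mutant and 58.1 and 53.0 CPM in WT (0.40, SE 0.18). MRT4 itself stood at 0.23 and TIF6, the anti-association factor, at 0.25. NMD3, RIA1 and JJJ1 lay below 0, at -0.099, -0.11 and -0.013, each with overlapping groups. The 7 enzymes that modify large subunit proteins had 6 above 0 and a median of 0.16, with both mutant libraries above both WT libraries for 2 and below them for 1. The share of all genes above 0 was 48.4%, and 19.1% had both mutant libraries above both WT libraries and 17.9% below them.

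Regulators of ribosomal protein genes also showed small differences. Of the 10 listed, 9 were tested, 7 lay above 0 and the median was 0.080. IFH1, the coactivator, had 51.6 and 54.0 CPM in mutant and 52.2 and 49.8 CPM in WT, a log2 fold change of 0.048 (SE 0.17). SFP1 had 58.7 and 74.7 CPM in mutant and 52.2 and 57.3 CPM in WT, at 0.28 (SE 0.20). It was 1 of 2 regulators with no overlap, beside FHL1 at 0.080. With 2 of the 9 tested, this was near the 19.1% of all genes with both mutant libraries above both WT libraries. RAP1, HMO1 and SCH9 stood at 0.20, 0.15 and 0.033. TOD6 was the highest at 0.31, while DOT6 and STB3 lay below 0, at -0.15 and -0.11, each with overlapping groups. The 34 mitochondrial large subunit genes with symbols MRPL and a number had 20 above 0 and a median of 0.020, against 74 of 81 and 0.25 for the cytosolic large subunit genes in the same fit.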

How the data were processed

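Ribosome-protected fragments were counted in 4 libraries, 2 mutant and 2 WT. The authors deposited whole-number counts per coding sequence, 1 column per library, not normalized. Bowtie2, DESeq2 and sacCer3 appear in the submitters' processing notes. No version, counting tool, strand setting or handling of reads with several matches is given in the sources used here. Because lines separate fields by doubled tabs and the header by single ones, the nth name was taken for the nth filled field, and each library's values rest on that. Gene symbols, coordinates and sequence came from RefSeq assembly R64, the sequence of sacCer3, in which 5917 of 6600 rows matched.

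Genes were tested with edgeR 4.0.16 (R 4.3.3; quasi-likelihood, two-sided, TMM, filterByExpr with minimum count 10 and minimum total count 15, Benjamini-Hochberg adjustment over 5233 genes). DESeq2 1.42.0 was an alternative. RPKM is TMM-normalized CPM per kilobase of coding sequence. Shares and ratios, 1 value per library, were compared by an exact permutation test, and intervals on shares are 95% Wilson intervals. A count of 0 would allow up to 3 counts, or 0.396 and 1.06 CPM in the mutant libraries and 0.101 and 0.294 CPM in the WT libraries. Intervals cover counting error only, as duplicate reads of 1 molecule cannot be recognised. Python 3.11.15, pandas 2.3.3, SciPy 1.17.1 and matplotlib 3.10.9 were used.

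The members, role groups, lists and tests were chosen with earlier results of these data known. Values, for some genes only in part, are given for the 12 members with the smallest unadjusted p and up to 6 pairs with the widest strain difference and no overlap. They are also given for the 5 highest and 5 lowest members per kilobase, the P proteins and a set of members named for their roles. RPL41A, RPL41B, RPL8B, RPL16B, RPL29, RPL32, RPL38 and the summed proteins named were chosen after their values were seen, as were list genes with values. Values of 1 member are not reported here singly, and its pair is left out of the plots by pair and by protein.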

Additional observations from a re-analysis of the deposited data

How the results depend on the processing

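The median log2 fold change of the members was 0.25 with all libraries and lay between 0.21 and 0.38 when single libraries were left out, the highest without WT replicate 2. Members called numbered 0 with all libraries and 0 to 24 in those fits, 3 without WT replicate 1 and 24 without WT replicate 2. Pairs whose A shares did not overlap numbered 13 with all libraries, 21 to 28 when single libraries were left out, which leaves fewer values to overlap, and 5 of the 16 pairs with under 20% shared. With DESeq2 size factors, upper-quartile scaling, total counts or no filter, the members above 0 numbered 72 to 76 and 0 were called.

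The direction of 14 named genes reversed when single libraries were left out, among them RPL15A and RPL22A, at 0.33 and 0.25 with all libraries. Without single libraries RPL11A lay between -0.057 and 0.48, RPL15A between -0.18 and 0.72, RPL15B between -0.13 and 0.46, RPL1B between -0.22 and 0.22 and RPL22A between -0.058 and 0.52. RPL26A lay between -0.092 and 0.31, RPL35A between -0.91 and 0.50, RPL37A between -0.041 and 0.27, RPL39 between -0.58 and 0.39 and RPL5 between -0.027 and 0.080. RPP0 lay between -0.040 and 0.22, RPP1B between -0.13 and 0.32, RPP2A between -0.49 and 0.055 and RPP2B between -0.17 and 0.42. RPL1B was -0.020 with total counts, and upper-quartile scaling gave 0.054 for RPL35A and 0.034 for RPL39. The cause was not tested.

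Same-numbered libraries share only a number in the labels. Their deviations correlated at 0.080 over 4603 genes, and with the replicate block the median was 0.26, 74 members lay above 0 and 0 were called. The next 3 alternatives were added after seeing the data. Summing paralogs gave a median of 0.26, members with under 20% shared gave 0.23 and members of at least 100 codons gave 0.26. Thinning every library to 2826895 counts gave 0.26. The depth of mutant replicate 2 limits genes such as RPL1A and RPL35B, with 13 and 21 counts there.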
